A study of Mus musculus with 6 samples.

Results

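Collagens, laminins, matrix metalloproteinases (MMPs) and their tissue inhibitors (TIMPs) were examined in mouse liver with and without the deacetylase SIRT1. Members were taken by gene name: every Col, Lam, Mmp or Timp gene on the array, whatever its signal. The names to match were chosen with earlier results of these data known. This gave 77 of the 27962 gene names on the array, measured by 137 of its 41174 probes that are not controls. Col4a3bp was matched by its spelling, but it encodes a ceramide transfer protein (current symbol Cert1) and no collagen. Its 4 probes form a family of their own below and stay in the counts over all members. The SIRT1 LKO group held male mice, 10 weeks old, that lacked SIRT1 in the liver, an NAD-dependent protein deacetylase. The Lox control group held males of the same age. Both groups were on chow, on a 95% C57BL/6 background, and were fed ad libitum until they were killed at 4 pm. The sources used here do not name the promoter that drove the recombinase. RNA of 2 animals was pooled per replicate, 500 ng was labelled with Cy3, and each group had 3 pools on 1 array each. The p-values measure the spread between pools within a group. Controls lay on slide 1 and LKO pools on slides 2 and 3, and the main fit has no term for slide. A slide difference that goes with genotype is therefore not in that spread.

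Collagen fibrils and sheets, and the laminin network of basement membranes, form the scaffold between liver cells. In healthy liver most of it lies around vessels and the capsule, while the space between hepatocytes and the sinusoid holds a loose matrix with little laminin. Hepatic stellate cells and portal fibroblasts make most interstitial collagen, endothelial cells add collagen IV, and the amount of matrix depends on its cleavage by MMPs, which TIMPs inhibit. A liver that scars gains fibrillar collagen, collagen IV and TIMP1.

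Signal is given as log2 of the processed intensity minus the 75th percentile of the same array, so 0 is the 75th percentile and 1 unit is a doubling. Values of different probes are not compared with each other. The 75th percentile itself lay at 1005 to 1056 intensity units on 5 arrays and at 1289 in LKO pool 3, and 52.2% to 66.4% of probes per array were well above background. The deposited value table equals the scanner intensity within 1% for 99.8% of probes in 5 pools and for 0.853% in LKO pool 3 (median ratio 0.719). Results that rest on LKO pool 3 are therefore given also without it and with the value table. Sirt1 itself read -0.072, 0.090 and 0.16 in the LKO pools against 0.29, 0.37 and 0.24 in the control pools at probe A_52_P358612 (difference -0.24, limma adjusted p = 0.243), and differed by -0.021 at A_51_P141152 (adjusted p = 0.941). Which exons were deleted is not stated here, so these probes do not check the labels.

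Testing needed a signal well above background in all 3 pools of LKO or of control, which kept 73 member probes of 55 gene names, among 23591 probes in all. Of the 137 member probes, 57 were above background on all 6 arrays, 37 on none, and 27 on some arrays without being tested. The families differed in how much of them could be read. Laminin beta had 3 of 3 probes tested and laminin alpha 9 of 12, whereas collagenases and gelatinases had 1 of 7. For 22 gene names no probe was tested. Among them were the collagenases Mmp1a, Mmp8 and Mmp13, the gelatinase Mmp9, the stromelysins Mmp3 and Mmp10, macrophage elastase (Mmp12) and Timp4, and the collagens Col4a3, Col4a5, Col10a1 and Col17a1. For 9 of these names no array was above background, and for 13 between 1 and 3 arrays were, at signals from -8.22 to -3.21 over the 22 names. A filter of this kind keeps probes that are high in 1 group, so counts over the tested probes do not describe all members.

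**Figure D1:**
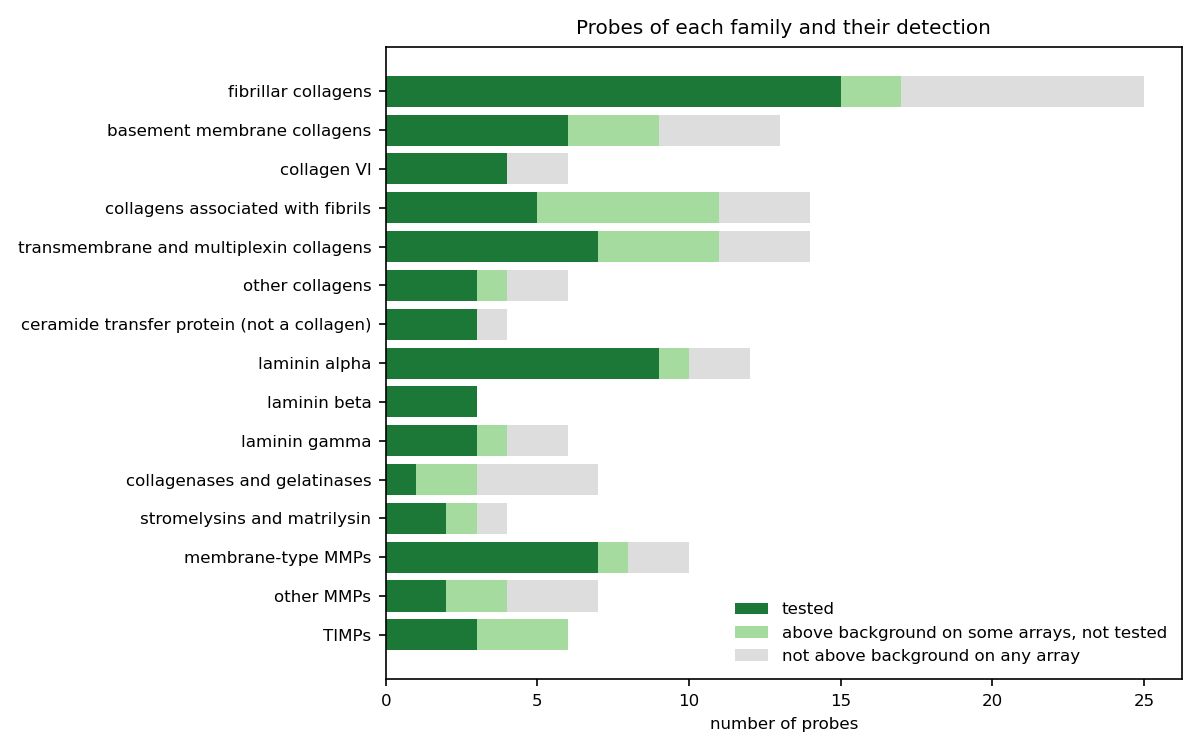
Number of probes of each family on the horizontal axis, split into probes tested, probes above background on some arrays but not tested, and probes above background on no array. Laminin beta has 3 of 3 probes tested, while collagenases and gelatinases have 1 of 7.

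No member differed between the genotypes past the threshold. The limma fit over all 23591 probes, Benjamini-Hochberg adjusted with 0.05 as its threshold, called 0 of the 73 members. It called 0.0636% of all tested probes (15 probes, of which 1 was higher and 14 lower in LKO). At an unadjusted p under 0.05, 15 members lay beyond it, 5 higher and 10 lower in LKO, which is 20.5% of members against 21.2% of all tested probes. The 3 LKO values and the 3 control values did not overlap for 21 members, or 28.8%, against 28.9% of all tested probes. Of these 21, LKO was the higher group for 8 (11% of members, against 14.9% of all probes) and the lower group for 13 (17.8%, against 13.9%). The median difference of members was 0.015, with 38 higher and 35 lower, against a median of 0.017 over all tested probes. In the shares over both directions and in the median, the members as a whole thus lay near all tested probes. The lowest adjusted p-values, between 0.0581 and 0.101, belonged to 7 probes of 5 genes: Mmp7, Col4a2, Col4a1, Col13a1 and Timp2.

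**Figure D2:**
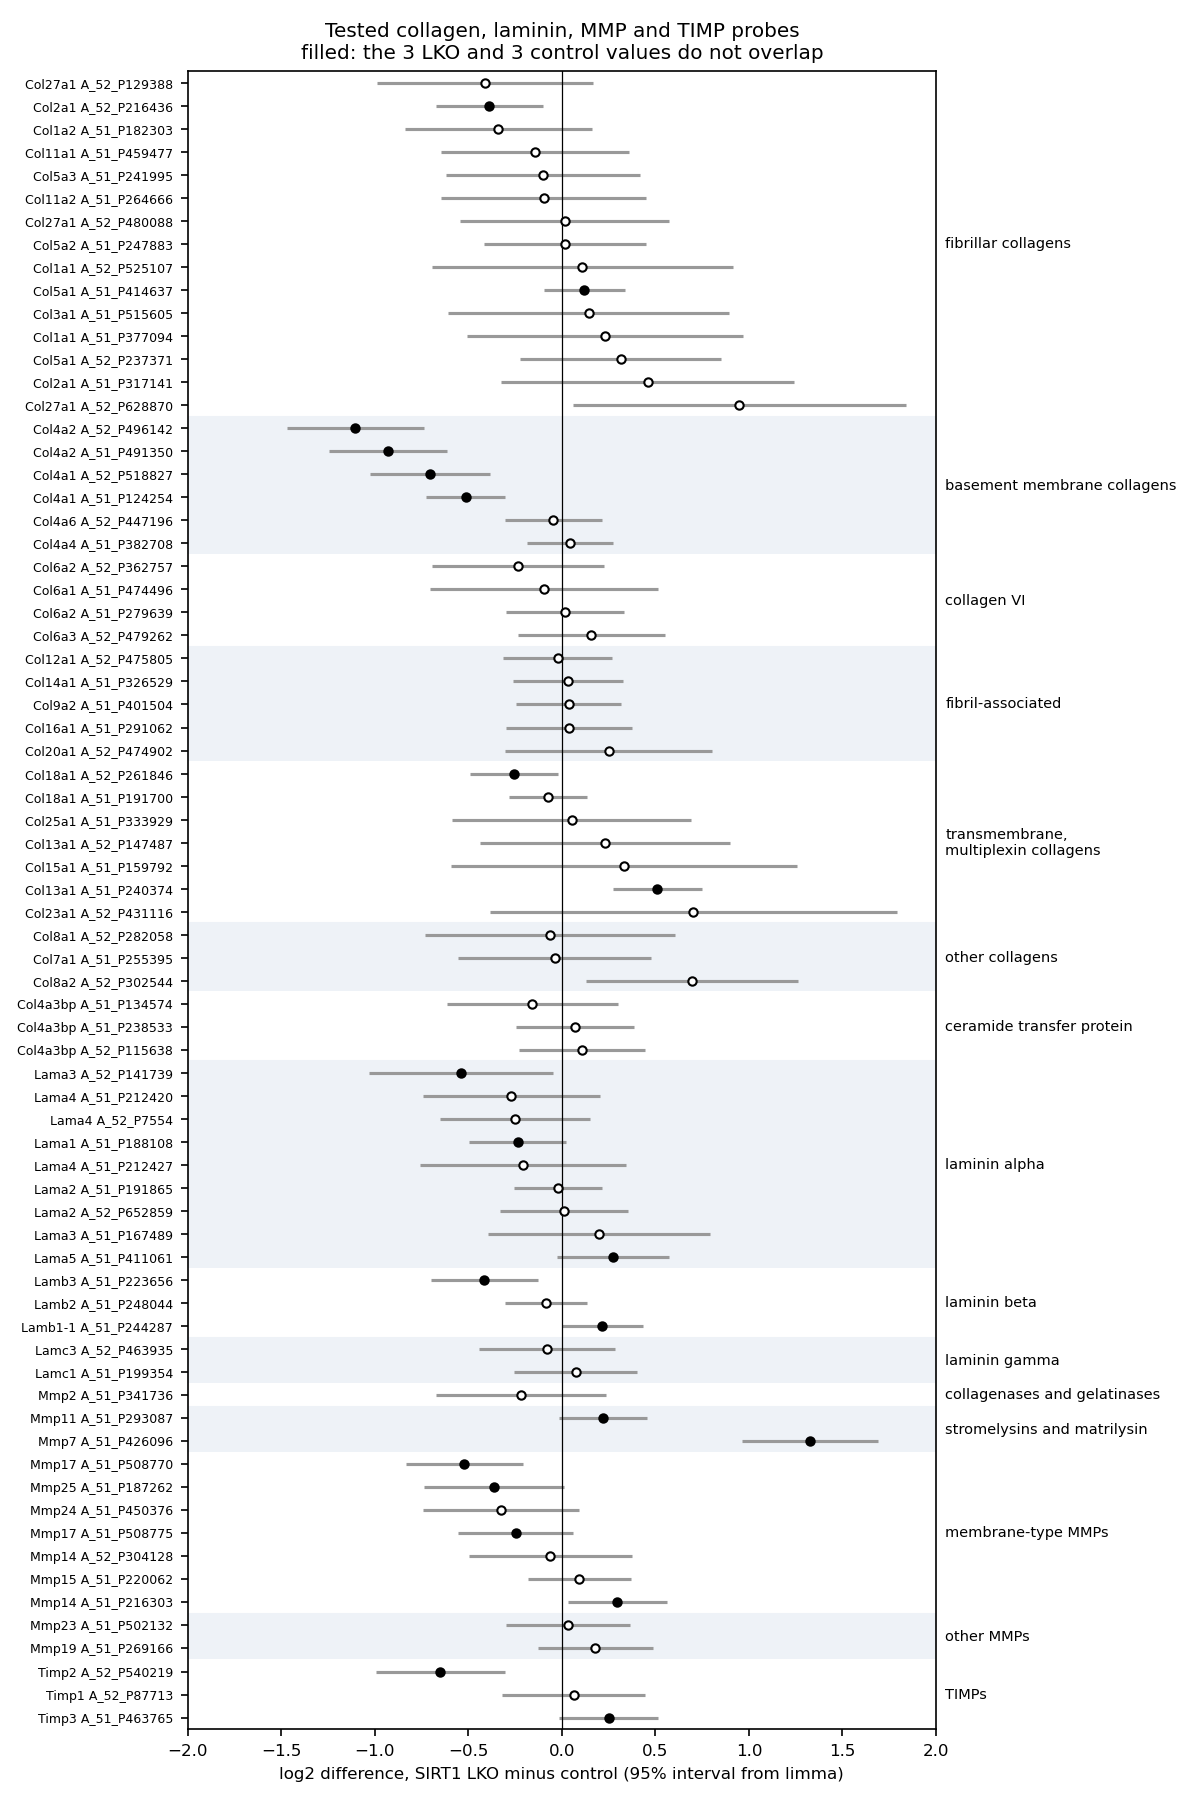
Log2 difference, SIRT1 LKO minus control, of 72 tested probes with its 95% interval from limma, grouped by family (shaded bands) and ordered within each. Filled points mark the 21 probes whose 3 LKO and 3 control values do not overlap; Mmp7 lies farthest right at 1.33 and the 2 Col4a2 probes farthest left at -1.10 and -0.93.

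Collagen IV, which forms the sheet of basement membranes, gave the lowest family median, -0.61 over 6 tested probes (1 higher, 5 lower). Its common form is a trimer of alpha chains made by Col4a1 and Col4a2, which stand head to head on mouse chromosome 8. The promoter windows of both genes, 250 bases before to 50 after the start of the transcript (RefSeq, GRCm38.p6), are shown because all 4 of their probes were lower in LKO. The Col4a1 window lies at chr8:11312777-11313076 on the minus strand and the Col4a2 window at chr8:11312555-11312854 on the plus strand. Capitals mark the 78 bases that both windows share, at chr8:11312777-11312854, read on opposite strands.
Col4a1: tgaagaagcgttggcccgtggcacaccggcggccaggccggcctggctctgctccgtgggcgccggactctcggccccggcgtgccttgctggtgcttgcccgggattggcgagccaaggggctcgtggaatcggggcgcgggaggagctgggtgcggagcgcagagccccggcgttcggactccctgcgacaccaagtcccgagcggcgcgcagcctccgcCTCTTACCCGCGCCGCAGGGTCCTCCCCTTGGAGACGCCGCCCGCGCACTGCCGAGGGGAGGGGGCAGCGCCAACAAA
Col4a2: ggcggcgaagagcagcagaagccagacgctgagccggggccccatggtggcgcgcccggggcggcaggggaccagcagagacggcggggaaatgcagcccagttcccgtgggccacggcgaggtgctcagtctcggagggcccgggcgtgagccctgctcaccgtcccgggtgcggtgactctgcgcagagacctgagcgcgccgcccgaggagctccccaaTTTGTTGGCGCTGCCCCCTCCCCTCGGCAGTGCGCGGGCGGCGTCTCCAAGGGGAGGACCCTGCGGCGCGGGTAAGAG
Neither window holds TATAAA or the AP-1 site TGANTCA on either strand, which 13.6% and 7.81% of the 32851 RefSeq mouse windows of the same length hold. Both hold CCAAT (37.4% of all windows) and the GC box GGGCGG (35.7% of all windows), the GC box once in the Col4a1 window and 3 times in the Col4a2 window. The Col4a1 match, at 9 from the start, and the Col4a2 match at 7 are the same shared bases, read on opposite strands. A match describes the letters and is not evidence of a bound factor.

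Both Col4a2 probes were lower in every LKO pool than in any control pool. Probe A_52_P496142 (chr8:11416191-11416250, mm7, plus strand) read -2.47, -2.35 and -1.96 in the LKO pools against -1.07, -1.15 and -1.25 in the control pools. LKO pool 3 was the least low of the LKO pools, and the groups stayed 0.71 apart at their nearest values. The difference was -1.10 (SE 0.15, 95% interval -1.47 to -0.74, 2.15-fold lower, limma adjusted p = 0.0704). Probe A_51_P491350 (chr8:11416851-11416910) read -0.58, -0.47 and -0.15 in the LKO pools, against 0.59, 0.51 and 0.49 in the control pools. Here too LKO pool 3 lay nearest to the controls. The difference was -0.93 (SE 0.13, 1.90-fold lower, adjusted p = 0.0704). Without LKO pool 3 both Col4a2 probes passed the threshold in limma, at -1.25 and -1.05 (adjusted p = 0.0423 each). With the value table they did not, at -0.96 (adjusted p = 0.0846) and -0.79 (adjusted p = 0.103).

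Col4a1 differed in the same direction by a smaller amount. Probe A_51_P124254 (chr8:11167020-11167079, mm7, minus strand) read -1.27, -1.23 and -1.24 in the LKO pools against -0.67, -0.73 and -0.80 in the control pools. The 3 LKO pools lay within 0.034 of each other and below every control pool. The difference was -0.51 (SE 0.09, 1.43-fold lower, limma adjusted p = 0.0791). Probe A_52_P518827, whose span in the files (chr8:11167857-11169691) is longer than the probe and so crosses an intron, read -1.36, -1.22 and -0.92 in the LKO pools against -0.50, -0.38 and -0.51 in the control pools. The groups did not overlap, and LKO pool 3 was again the least low. The difference was -0.70 (SE 0.13, 1.63-fold lower, adjusted p = 0.0858). Without LKO pool 3 the second probe passed (-0.83, adjusted p = 0.0442) and the first stayed just short (-0.52, adjusted p = 0.0504). With the value table neither did (-0.61, adjusted p = 0.118, and -0.33, adjusted p = 0.277).

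The other collagen IV chains did not show this difference at their tested probes, 1 each for Col4a4 and Col4a6. Col4a4 read -0.99, -0.81 and -1.002 in the LKO pools against -0.99, -0.95 and -0.98 in the control pools (0.043, adjusted p = 0.827). Col4a6 differed by -0.045 (adjusted p = 0.841). Their 95% intervals, -0.19 to 0.27 and -0.30 to 0.21, exclude a drop as large as that of either Col4a2 probe. Col4a3 and Col4a5 were not tested, with 1 array above background at most. Also not tested were Col4a4 probe A_52_P424594, above background on 1 LKO array, and Col4a6 probes A_51_P109326 and A_52_P516409, on no array. Pooled tissue RNA cannot tell fewer cells of a type from less RNA per cell, and this holds for every difference given here.

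**Figure D3:**
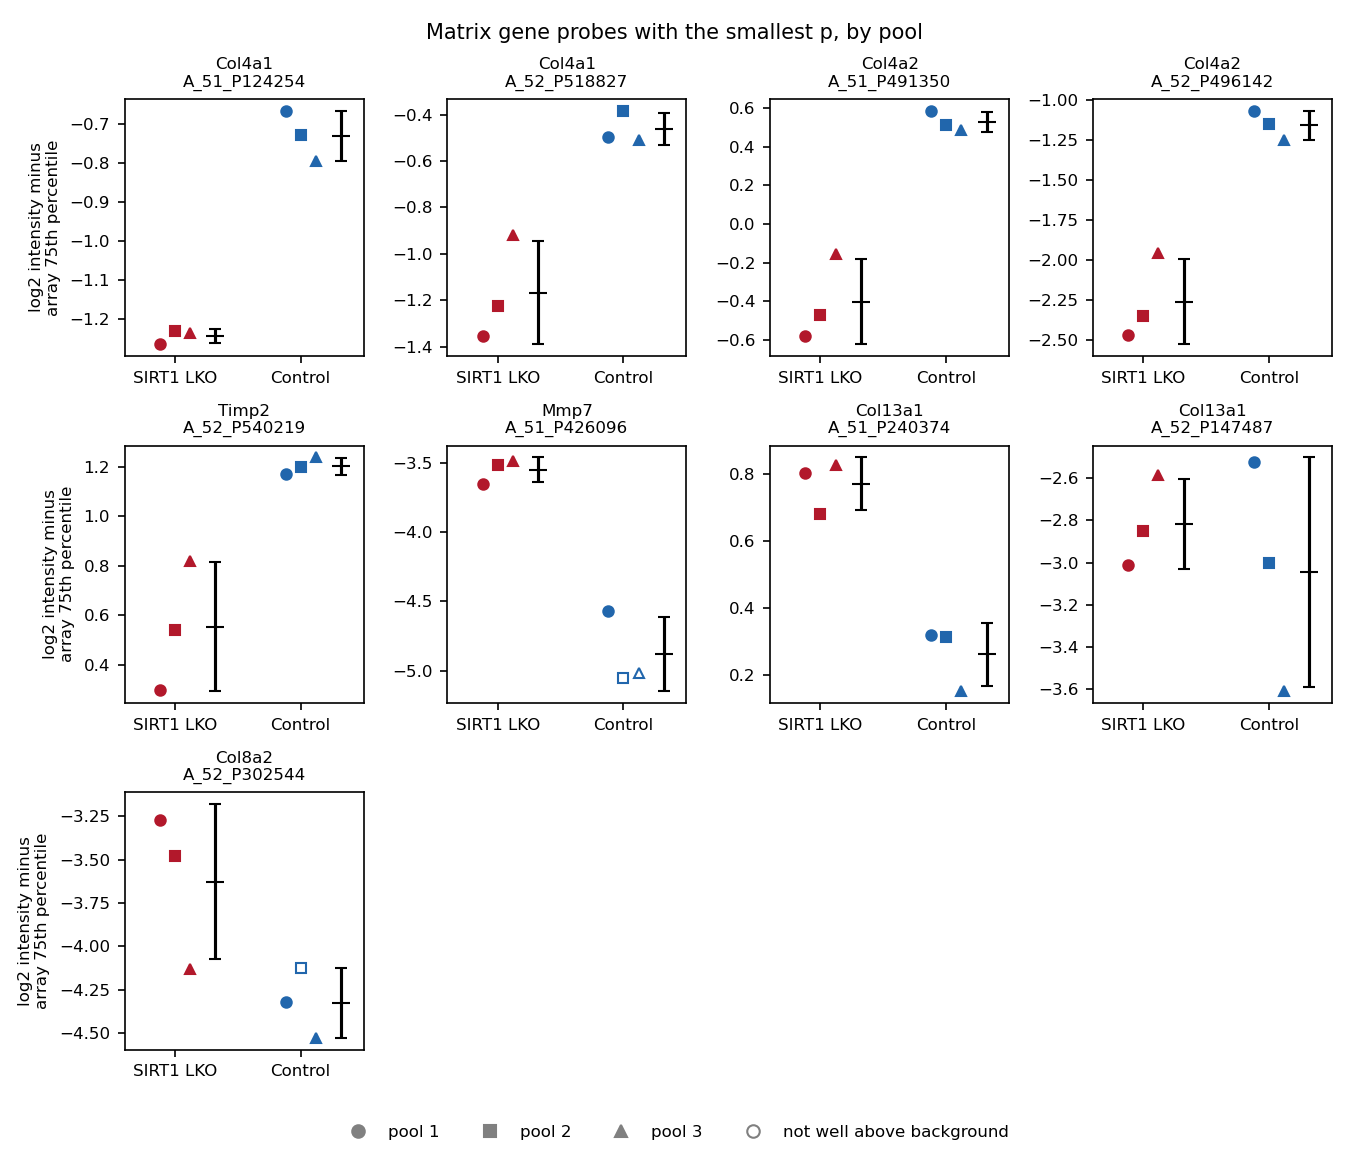
Log2 intensity minus the array's 75th percentile for each pool at the 9 tested probes of the 6 genes with an adjusted p up to 0.101 or a call without LKO pool 3, each panel on its own scale, with SIRT1 LKO (red) left of control (blue). Symbols stand for pool numbers, open symbols for arrays not well above background, and black bars for the mean and SD of 3 pools. The 4 collagen IV panels and Timp2 show 3 LKO values below 3 control values, with LKO pool 3 nearest the controls in 4 of these 5.

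Among the proteases, 1 probe of Mmp7 read higher in LKO. MMP7, or matrilysin, is a small secreted MMP made by epithelial cells, bile duct cells among them. Its promoter window (RefSeq, GRCm38.p6, chr9:7691840-7692139, plus strand) and that of Timp2, an inhibitor of MMPs (chr11:118355362-118355661, minus strand), are shown because these genes gave the lowest p-values among the MMPs and TIMPs. Capitals mark an AP-1 site TGANTCA in the Mmp7 window, at -63 from the start, and a GC box GGGCGG in the Timp2 window, at -37.
Mmp7: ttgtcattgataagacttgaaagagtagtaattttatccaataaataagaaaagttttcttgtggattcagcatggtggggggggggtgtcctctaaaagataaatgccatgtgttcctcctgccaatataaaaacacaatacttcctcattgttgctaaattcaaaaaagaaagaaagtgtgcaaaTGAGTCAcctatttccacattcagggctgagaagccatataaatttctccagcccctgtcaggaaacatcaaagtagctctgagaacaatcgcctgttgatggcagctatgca
Timp2: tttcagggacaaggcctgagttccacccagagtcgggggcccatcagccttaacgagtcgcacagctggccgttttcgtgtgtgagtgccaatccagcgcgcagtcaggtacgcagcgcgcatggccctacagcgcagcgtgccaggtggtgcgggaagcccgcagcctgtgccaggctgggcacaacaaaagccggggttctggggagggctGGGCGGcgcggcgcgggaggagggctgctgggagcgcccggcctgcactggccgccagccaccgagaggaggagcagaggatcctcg
The Mmp7 window also holds TATAAA at -123 and -26 and no GC box, while the Timp2 window holds neither TATAAA nor an AP-1 site. Over the 65 windows found for 58 of the 78 symbols of the members, 12.3% hold the AP-1 site, 52.3% the GC box, 21.5% TATAAA and 29.2% CCAAT, against 7.81%, 35.7%, 13.6% and 37.4% of all windows. Several windows belong to 1 gene, and these shares are a description.

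Mmp7 probe A_51_P426096 (chr9:7695434-7695493, mm7, plus strand) read -3.66, -3.52 and -3.49 in the LKO pools against -4.57, -5.05 and -5.02 in the control pools. It passed the background flag on 3 LKO arrays and on 1 of 3 control arrays, and the groups did not overlap. It was thus tested through its LKO signal alone, and 2 of the 3 control values it is set against were not well above background. The difference was 1.33 (SE 0.15, limma adjusted p = 0.0581), and 0.78 with normexp background correction (adjusted p = 0.824). It passed the threshold without LKO pool 3 (1.29, adjusted p = 0.0477) and not with the value table (1.65, adjusted p = 0.0614), where LKO pool 3 read -2.52. Mmp7 is the outermost probe of a run of MMP genes on chromosome 9, between 7280046 and 7695493 (mm7), in which 9 probes stand for 8 genes. The other 8 probes (Mmp1a, Mmp3, Mmp8, Mmp10, Mmp12, Mmp13 and Mmp20) were not tested, and 6 of the 9 were above background on no array, while Mmp10 was above it on 1 LKO and 1 control array and Mmp13 on 1 LKO array.

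Like Mmp7 with all pools, Mmp2, Mmp11, Mmp19 and Mmp23 did not pass the threshold. Mmp11 (stromelysin 3) was higher by 0.22 with no overlap of the groups (adjusted p = 0.255). Mmp2, a gelatinase that stellate cells make, read -3.44, -3.13 and -3.31 in the LKO pools, against -3.43, -3.04 and -2.75 in the control pools, and the groups overlapped (-0.22, adjusted p = 0.535). Mmp19 and Mmp23 differed by 0.18 (adjusted p = 0.451) and 0.033 (adjusted p = 0.913).

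Membrane-type MMPs sit on the cell surface, and MMP14 there activates MMP2. The family had 7 tested probes of 5 genes, 2 higher and 5 lower. Mmp14 gave opposite signs at its probes. A_51_P216303 read 1.60, 1.90 and 1.85 in the LKO pools against 1.51, 1.47 and 1.48 in the control pools (0.30, adjusted p = 0.200), with every LKO pool above every control pool. A_52_P304128 differed by -0.062 (adjusted p = 0.870), with overlapping groups. Mmp17 was lower at both probes, without overlap. Its probe A_51_P508770 read -2.52, -2.57 and -2.66 in the LKO pools against -2.05, -1.85 and -2.28 in the control pools (-0.52, SE 0.13, adjusted p = 0.118). The second Mmp17 probe differed by -0.25 (adjusted p = 0.314), and by 0.19 with normexp. Mmp25 was lower by a difference of -0.36 (adjusted p = 0.249), Mmp24 differed by -0.33 (adjusted p = 0.326), both with the opposite sign under normexp (0.31 and 0.27), and Mmp15 by 0.093 (adjusted p = 0.674).

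Among the inhibitors, Timp2 was lower in LKO and Timp1 differed by less than the spread between pools. TIMP2 inhibits MMPs and, in complex with MMP14, takes part in activating pro-MMP2. Timp2 probe A_52_P540219 (chr11:118410877-118410936, mm7, minus strand) read 0.30, 0.54 and 0.82 in the LKO pools against 1.17, 1.20 and 1.24 in the control pools. The control pools lay within 0.069 of each other, the LKO pools were spread over 0.52, and all were below the controls. The difference was -0.65 (SE 0.14, 1.57-fold lower, limma adjusted p = 0.101). It was -0.78 without LKO pool 3 (adjusted p = 0.0477) and -0.61 with the value table (adjusted p = 0.0917). Timp1 is the inhibitor that rises when liver scars. Its probe A_52_P87713 read 0.58, 0.78 and 0.34 in the LKO pools against 0.27, 0.66 and 0.58 in the control pools. The groups overlapped (0.063, 95% interval -0.32 to 0.44, adjusted p = 0.849). The other Timp1 probes were not tested. A_51_P512379 was above background on 1 LKO and 1 control array, and A_51_P512384 on 1 LKO array. Timp3, which is bound to the matrix, read 1.71, 1.53 and 1.84 in the LKO pools against 1.44, 1.49 and 1.40 in the control pools. All LKO pools were above the controls, and the difference was 0.25 (adjusted p = 0.252). Timp4 was above background on 1 of 6 arrays.

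Fibrillar collagens, the rope-like collagens of connective tissue and scars, had 15 tested probes, 9 higher and 6 lower in LKO, with a median of 0.017. The interstitial collagens Col1a1, Col1a2 and Col3a1 fall outside the rule for named genes and are given for their role in liver scarring, after their values were seen. Col1a1 probe A_52_P525107 read -0.22, -0.056 and -0.39 in the LKO pools, against -0.64, -0.82 and 0.47 in the control pools. Col1a2 read 0.66, 0.96 and 0.89 in the LKO pools, against 0.98, 0.93 and 1.63 in the control pools. Col3a1 read 1.55, 1.57 and 0.60 in the LKO pools, against 1.05, 0.75 and 1.49 in the control pools. Control pool 3 was the highest control for these 3 probes, and the groups overlapped in each. It was the highest for 7 of the 15 fibrillar probes and for 31.5% of all tested members. The differences were 0.11 for Col1a1 (adjusted p = 0.876), -0.34 for Col1a2 (adjusted p = 0.388) and 0.14 for Col3a1 (adjusted p = 0.823). The limits of these estimates are wide, from -0.70 to 0.92 for this Col1a1 probe and from -0.61 to 0.89 for Col3a1. Col3a1 turned on LKO pool 3: with the value table that pool read 2.19, and the difference was 0.67 (adjusted p = 0.157).

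**Figure D4:**
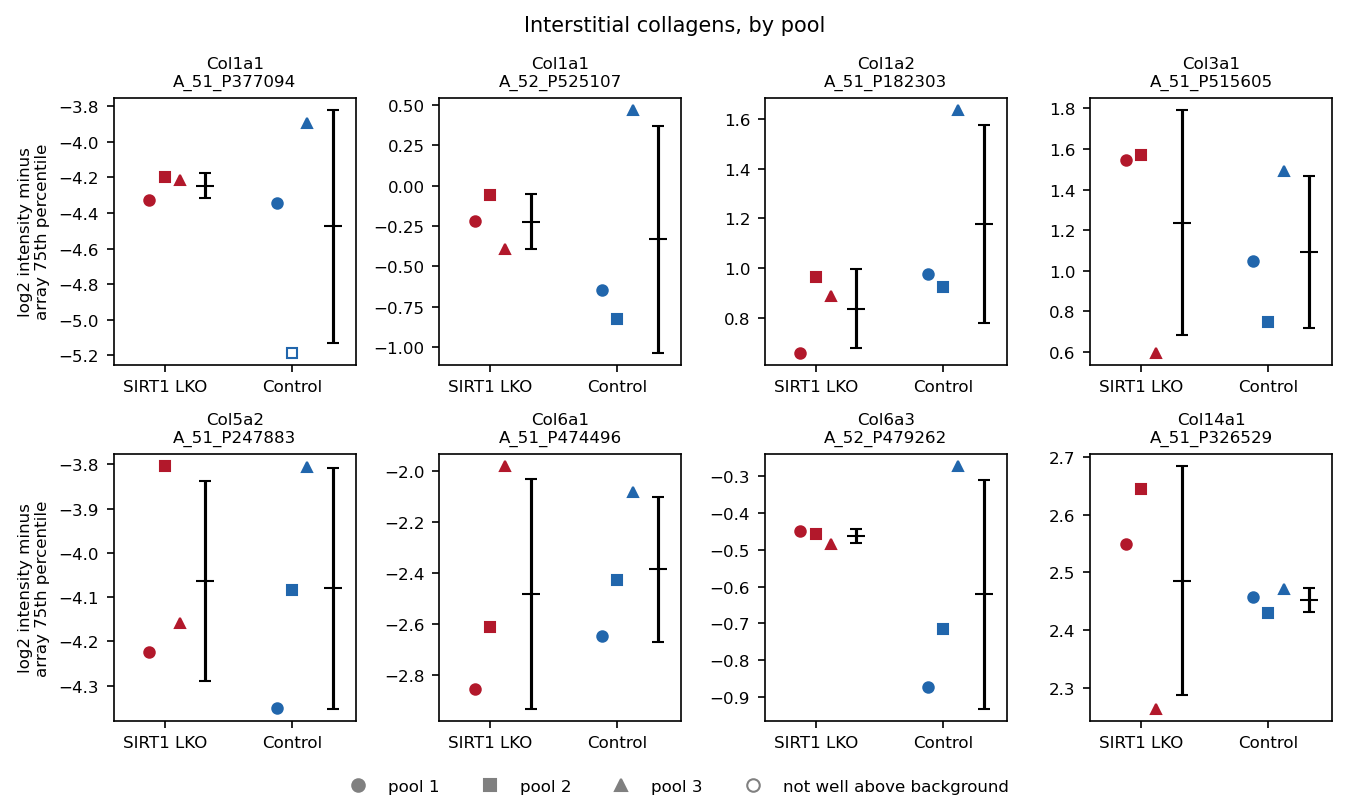
Log2 intensity minus the array's 75th percentile by pool for 8 probes of interstitial, fibril-associated and collagen VI genes, each panel on its own scale, with SIRT1 LKO (red) left of control (blue). Symbols stand for pool numbers, the open symbol for an array not well above background, and black bars for the mean and SD of 3 pools. The groups overlap in every panel. Control pool 3 is the highest control in these 8, which are not all tested probes of their families. It is the highest for 7 of 15 fibrillar, 2 of 4 collagen VI and 3 of 5 fibril-associated probes, and for 31.5% of all tested members.

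The lowest p-values of the fibrillar family belonged to Col2a1 and Col27a1, cartilage collagens. Col2a1 probe A_52_P216436 read -2.17, -2.18 and -2.48 in the LKO pools against -1.96, -1.84 and -1.86 in the control pools. All LKO pools lay below the controls (-0.39, adjusted p = 0.148). Col2a1 probe A_51_P317141 shares 40 of its 60 positions with it and differed by 0.46 (adjusted p = 0.451), the opposite sign, with overlapping groups. With the value table the first probe differed by -0.017 and the second by 0.96. Col27a1 had 3 tested probes, at 0.95 (adjusted p = 0.214), -0.41 (adjusted p = 0.368) and 0.015 (adjusted p = 0.978), and the first was above background on 1 of 3 control arrays. The other fibrillar probes, of Col5a1, Col5a2, Col5a3, Col11a1, Col11a2 and the second Col1a1 probe, differed by -0.14 to 0.31, with adjusted p from 0.452 to 0.968.

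Collagen VI, a beaded filament that links cells to fibrils, had 4 tested probes between -0.24 and 0.16, with adjusted p from 0.507 to 0.956. Col6a3 read -0.45, -0.46 and -0.48 in the LKO pools against -0.87, -0.72 and -0.27 in the control pools. The LKO pools lay inside the control range. Col6a1 differed by -0.097 (adjusted p = 0.855), and the Col6a2 probes by -0.24 and 0.017. Collagens associated with fibrils, which coat or bridge them, had 5 tested probes between -0.022 and 0.25. Col14a1, which binds fibrils, read 2.55, 2.64 and 2.26 in the LKO pools, against 2.46, 2.43 and 2.47 in the control pools (0.033, adjusted p = 0.899). Col20a1 differed by 0.25 (adjusted p = 0.562), and Col9a2 and Col16a1 by 0.036 and 0.040, with overlapping groups in each.

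Transmembrane collagens carry their collagen domain on the cell surface, and multiplexins lie in basement membranes. The family had 7 tested probes, 5 higher and 2 lower. Col13a1, a transmembrane collagen, read 0.80, 0.68 and 0.83 in the LKO pools against 0.32, 0.31 and 0.15 in the control pools at probe A_51_P240374. Every LKO pool was above every control pool, and the difference was 0.51 (SE 0.10, 1.42-fold higher, limma adjusted p = 0.0874). It was 0.48 without LKO pool 3 (adjusted p = 0.0588) and 0.32 with the value table (adjusted p = 0.257), where that pool read 0.25, inside the control range. The second Col13a1 probe differed by 0.23 with overlapping groups (adjusted p = 0.664).

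Col18a1 encodes the multiplexin that releases endostatin and is made by hepatocytes. Probe A_52_P261846 read 5.95, 6.02 and 6.18 in the LKO pools against 6.30, 6.30 and 6.32 in the control pools. The LKO pools were all lower, by a small margin (-0.26, adjusted p = 0.210). The second probe, A_51_P191700, differed by -0.072 (adjusted p = 0.667). Col15a1, the related multiplexin, read -2.48, -2.27 and -3.76 in the LKO pools, against -3.16, -2.95 and -3.39 in the control pools. LKO pools 1 and 2 were above every control and LKO pool 3 below. Its difference was 0.33 (adjusted p = 0.651). It reached 0.79 without LKO pool 3 (adjusted p = 0.0571). Col23a1 differed by 0.70 (adjusted p = 0.407), with 1 control array above background, and Col25a1 by 0.053 (adjusted p = 0.928).

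Of the other collagens, Col8a2, a network collagen of vessels and the cornea, read -3.27, -3.48 and -4.13 in the LKO pools against -4.32, -4.13 and -4.53 in the control pools. It was above background on 3 LKO and 2 control arrays. LKO pools 1 and 2 were above every control, and LKO pool 3 lay inside the control range. The difference was 0.70 (SE 0.24, adjusted p = 0.172). It passed the threshold without LKO pool 3 (0.95, adjusted p = 0.0492) and with the value table (0.89, adjusted p = 0.0489), where that pool read -3.55. Col8a1 and Col7a1, the collagen of anchoring fibrils, differed by -0.064 (adjusted p = 0.916) and -0.039 (adjusted p = 0.935). The 3 tested probes of the ceramide transfer protein gene Col4a3bp differed by -0.16 to 0.11.

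Laminins are trimers of an alpha, a beta and a gamma chain, and with collagen IV they build basement membranes. The 15 tested laminin probes lay between -0.54 and 0.27. The alpha chains had a median of -0.21 over 9 probes (3 higher, 6 lower). Lama3 probe A_52_P141739 read -4.64, -4.27 and -4.19 in the LKO pools, against -3.47, -4.14 and -3.87 in the control pools. The LKO pools were lower (-0.54, adjusted p = 0.209), but the nearest values were 0.046 apart and the second Lama3 probe differed by 0.20 (adjusted p = 0.675). Lama4, the alpha chain of vessel walls, was lower at all 3 probes, by differences of -0.27, -0.25 and -0.21, with overlapping groups and adjusted p of 0.426 and above. With normexp these were -0.069, 0.023 and 0.15. Its probes A_51_P212420 and A_52_P7554 share 29 positions. Lama1 differed by -0.24 (adjusted p = 0.265) and Lama5 by 0.27 (adjusted p = 0.267), each without overlap, and the Lama2 probes by -0.021 and 0.012.

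Among the beta chains, Lamb3, which is typical of epithelia, read -2.45, -2.62 and -2.54 in the LKO pools against -2.04, -2.01 and -2.32 in the control pools. Each LKO pool lay below each control pool (-0.41, SE 0.12, adjusted p = 0.137). Lamb1, listed as Lamb1-1, read -0.83, -0.83 and -0.94 in the LKO pools against -1.03, -1.08 and -1.14 in the control pools. It was the reverse case, with every LKO pool higher (0.21, adjusted p = 0.237). Lamb2 differed by -0.086 (adjusted p = 0.621). Lamc1, the gamma chain of most laminins, read 0.65, 0.63 and 1.02 in the LKO pools, against 0.67, 0.80 and 0.60 in the control pools, and differed by 0.073 (adjusted p = 0.788). The gamma chain Lamc3 differed by -0.079 (adjusted p = 0.792). Over all laminin chains, 6 probes were higher and 9 lower.

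Probes of 1 gene were read on the same pools and slides, so their agreement cannot tell genotype from slide. Of the 15 gene names with 2 or more tested probes, the probes had the same sign for 8 and different signs for 7 (Col27a1, Col2a1, Col4a3bp, Col6a2, Lama2, Lama3 and Mmp14). The genes whose probes all lay without overlap between genotypes were Col4a1, Col4a2 and Mmp17. Shares over all genes on the array with 2 or more tested probes are not given, so these counts have no background beside them.

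Leaving out LKO pool 3, which has a slide of its own among these arrays, changed the calls. Then 6 members passed the threshold (8.22% of the 73), against 2.87% of all tested probes. The 4 lower ones were both Col4a2 probes, Col4a1 A_52_P518827 and Timp2, and the 2 higher ones Mmp7 and Col8a2. The value table gave a call for 1 member (Col8a2), against 1.25% of all tested probes. Controls lay on slide 1, LKO pools 1 and 2 on slide 2 and LKO pool 3 on slide 3, so no slide held both genotypes. With slide as a random block, 0 members and 0% of all tested probes passed in limma (11.2% of all probes and 10 of 73 members at an unadjusted p under 0.05), and both Col4a2 probes and Mmp7 had an adjusted p of 0.340 to 0.342.

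**Figure D5:**
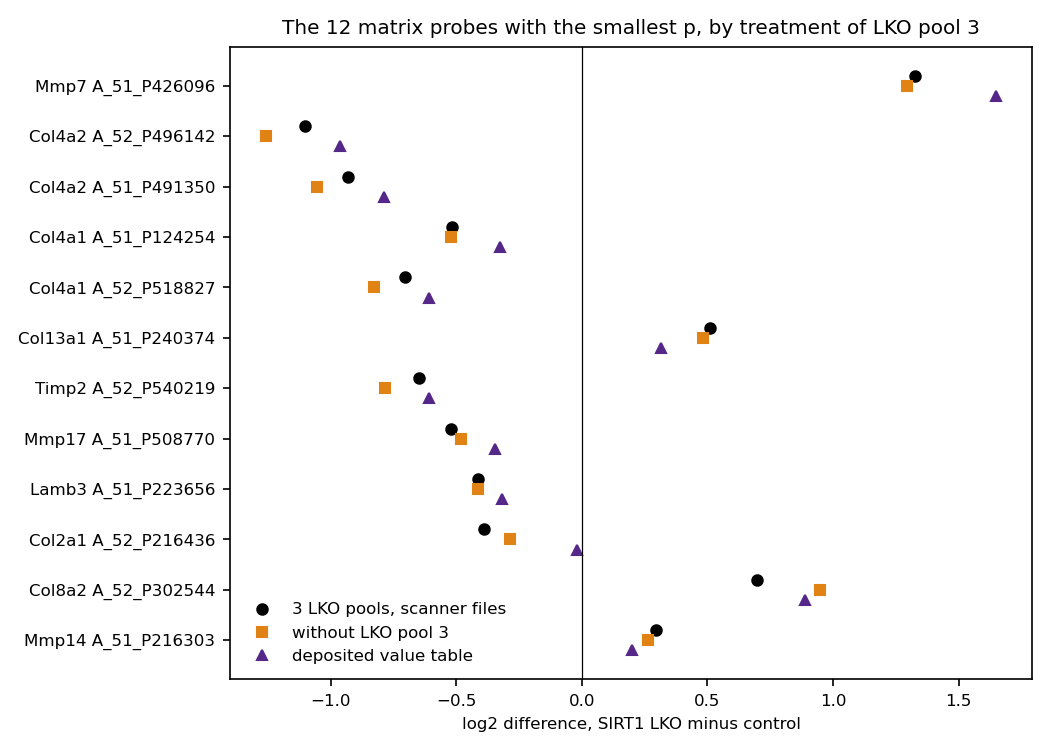
Log2 difference, SIRT1 LKO minus control, of the 12 members with the smallest p, from 3 LKO pools in the scanner files (circles), without LKO pool 3 (squares) and from the deposited value table (triangles). The sign is the same in all 3 for each probe; the collagen IV and Timp2 differences are largest in size without LKO pool 3, and Col4a1 A_51_P124254 lies at -0.51 with and -0.52 without it.

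Genes that work with these members were read from lists of the same fit, chosen with earlier results known. Of 7 lists with 141 tested probes, 1 probe passed: Serpine2, an inhibitor of thrombin, plasmin and urokinase. It read -3.43, -4.15 and -3.67 in the LKO pools against -1.58, -1.32 and -1.66 in the control pools. No LKO pool came within 1.76 of a control, and the difference was -2.23 (SE 0.20, limma adjusted p = 0.0397). It passed as well without LKO pool 3 (-2.27, adjusted p = 0.0423) and with the value table (-2.43, adjusted p = 0.0432). It did not pass with normexp, no filter, slide or replicate as a block, or any other pool left out, where 0 probes passed. The other 12 probes of that list, of the plasmin system and MMP regulators, had 10 higher and 2 lower. Furin, which activates membrane-type MMPs, differed by 0.35 (adjusted p = 0.156).

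Collagen processing and crosslinking genes had 0 of 25 probes past the threshold, with 10 higher, 15 lower and a median of -0.089. Adamts2, which removes the collagen propeptide, differed by -0.31 (adjusted p = 0.193) at 1 probe and by 0.12 and 0.017 at its other tested probes, and the crosslinking oxidase Loxl4 by 0.99 (adjusted p = 0.235, with LKO pool 2 missing as an outlier spot and 1 control array above background). Basement membrane and glycoprotein partners had 0 of 22 (13 higher, 9 lower). Nidogen 2 (Nid2), which ties laminin to collagen IV, differed by -0.45 (adjusted p = 0.152) and Postn by 0.27 (adjusted p = 0.185). Proteoglycans had 0 of 8, with 1 higher and 7 lower. Biglycan (Bgn) read -1.79, -1.68 and -0.89 in the LKO pools against -0.96, -0.83 and -0.70 in the control pools. LKO pool 3 lay inside the control range, and the difference was -0.62 (adjusted p = 0.215), or, leaving that pool out, -0.91 (adjusted p = 0.0453). Decorin (Dcn) differed by -0.40 (adjusted p = 0.222).

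Collagen and laminin receptors had 0 of 29 past the threshold (12 higher, 17 lower). The count was 3 without LKO pool 3 (2.87% of all tested probes) and 3 with the value table (1.25% of all tested probes). Both probes of the laminin receptor dystroglycan (Dag1, named after its values were seen) passed in either case. They differed by -0.54 and -0.48 (adjusted p = 0.199 and 0.231), by -0.77 and -0.71 without LKO pool 3 (adjusted p = 0.0450 each) and by -0.69 and -0.66 with the value table (adjusted p = 0.0489 and 0.0457). The third was a probe of the laminin receptor chain Itga7, -0.55 at A_51_P181671 without LKO pool 3 (adjusted p = 0.0492) and -0.60 at A_52_P413034 with the value table (adjusted p = 0.0489), against -0.23 and -0.28 with all pools. The collagen receptors Itga11 and Ddr1 differed by 0.43 (adjusted p = 0.135) and 0.50 (adjusted p = 0.161). ADAM and ADAMTS proteases had 0 of 17 (9 higher, 8 lower). Adam17, the sheddase of TNF, differed by -0.39 and -0.41 at its probes (adjusted p = 0.0967 and 0.110). Genes of TGF-beta signalling, the pathway that drives collagen synthesis, had 0 of 27 (14 higher, 13 lower). The inhibitor Smad7 differed by 0.53 (adjusted p = 0.107) and the receptor Tgfbr2 by -0.79 (adjusted p = 0.119) and -0.54 (adjusted p = 0.170) at its probes. Without LKO pool 3 the first Tgfbr2 probe (-0.56) and Ltbp1 (0.83, named for this) passed, with an adjusted p of 0.0492 each.

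Markers of the cells that make matrix are given beside these values. Stellate cell and fibroblast markers had 18 probes higher and 7 lower of 25 (median 0.13), 0 called. Their summed linear signal, relative to the 75th percentile, was 74.5 to 78.9 in the LKO pools against 66.3 to 71.9 in the control pools. The brightest probes of a list weigh most in such a sum. Sums of other lists parted as well, higher in LKO for ADAM and ADAMTS proteases (20.3 to 22.6, controls 17.6 to 18.7). They were lower in LKO for TGF-beta signalling (41.5 to 42.3, controls 42.8 to 43.2), proteoglycans and adipose markers. Des differed by -0.062, Lrat by -0.84 (adjusted p = 0.121) at 1 probe and 0.24 at the other, and Hand2 by 0.60 (adjusted p = 0.135) and 0.47. Endothelial markers had 18 higher and 12 lower of 30 (median 0.036), 0 called, with sums of 71.0 to 77.9 in the LKO pools against 66.5 to 77.8 in the control pools. Stab2 differed by 0.021, Pecam1 by -0.20, Tek by -0.50 (adjusted p = 0.113) and 0.061, and Lyve1 by 0.55 (adjusted p = 0.254) and 0.12. Cholangiocyte markers had 11 higher and 11 lower of 22, 0 called, with sums of 10.9 to 14.1 in the LKO pools against 13.01 to 13.9 in the control pools. Sox9 differed by -1.20 and -1.12 (adjusted p = 0.0571 and 0.0654), both past the threshold without LKO pool 3 (adjusted p = 0.0452 and 0.0477), and Prom1 by 0.81 (adjusted p = 0.104), while Krt19 differed by 0.068 and Epcam by 0.70. Hepatocyte markers had 12 higher and 12 lower of 24, 0 called, with Alb and Ttr above background on all 6 arrays, Hnf4a at -0.44 (adjusted p = 0.133, and 0.0492 without LKO pool 3), -0.23 and -0.079, and Glul at -0.54 (adjusted p = 0.223) and -0.21. The part of any of these cell types in the collagen IV, Timp2 and Mmp7 values was not tested.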

How the data were processed

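Liver RNA pools of 2 animals, 3 per genotype, were hybridised to 1-colour Agilent whole mouse arrays. The submitters' processing notes name Agilent Feature Extraction 9.5 as the source of the deposited spot intensity, from which background and spatial trend had been removed within an array, per the file headers. Per the labels, the value table is linear intensity from the Rosetta Resolver error model. The sources used here do not say how its LKO pool 3 column was made. Flags for each spot are other values that the authors deposited with the scans.

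Controls were dropped, spots flagged as outliers were treated as missing, spots of 1 probe were averaged after log2 of the deposited intensity, and each array's 75th percentile was subtracted. The number of arrays limits the precision. LKO minus control was fitted per probe by lmFit and eBayes of limma 3.58.1 under R 4.3.3, with genotype as the only term and two-sided p-values, on 23591 probes, with Benjamini-Hochberg adjustment over all of them and a threshold of 0.05. The steps were tested on simulated data. Accessions matched a RefSeq table (GRCm38.p6) for 22951 probes; other names, and mm7 coordinates, are those of the files. Probes are not assigned to exons, since no genome was used.

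Members and gene lists were chosen with earlier results of these data known. Named with values are the 3 members with the smallest p in each family, all TIMPs, genes whose probes differ in sign and the 2 smallest p of every other list. One gene is not reported here by name. Groups of 3 share replicate numbers, which did not pair the pools. Alternatives were normexp (offset 50), quantile normalization, median centring, no filter, a filter on all 6 arrays, outliers kept, 1 probe or the mean per gene, slide and replicate blocks, array weights, an intensity trend with robust variance, the value table and each pool left out. Figures were drawn with matplotlib 3.10.9.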

Additional observations from a re-analysis of the deposited data

How the results depend on the processing

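The number of arrays and dim signal limit these results: 64 of 137 member probes could not be tested, and slide and genotype cannot be told apart, since no slide held both. Of the members, 0 passed the threshold in limma and 15 lay under an unadjusted p of 0.05. The count past the threshold was 17 with array weights (20.4% of all tested probes), 2 with an intensity trend and robust variance (both Col4a2 probes), 1 with quantile normalization (Mmp7), 1 with the value table (Col8a2) and 0 to 6 with 1 pool left out, the 6 without LKO pool 3. It was 0 under every other alternative run. Over all tested probes the count of 15 became 4816 with array weights, 296 with the value table, 91 with the trend and 17 with quantile normalization. It became 49 among probes above background on all 6 arrays, 24 with the brightest probe and 24 with the mean per gene. It was 0 with normexp (1567 at an unadjusted p under 0.05), with no filter (6858), with slide as a random block (2631) and with the replicate block (4365), and 0 to 676 with 1 pool left out, the 676 without LKO pool 3 and 0 without any other. The median of members, 0.015, became 0.16 with normexp (55 higher, 18 lower, against a median of 0.093 over all probes), 0.083 with array weights, 0.11 with the value table and -0.046 to 0.022 with 1 pool left out. Same-numbered pools deviated from their group means with correlations of 0.009, -0.043 and -0.093, so the number was not taken as a pairing, and the block called 0 members.

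Members that turned sign did so with no value past the threshold on the turned side, and for each of them the cause was not tested. With normexp these were Col4a6 (0.033), Col6a1 (0.17), Col6a2 A_52_P362757 (0.18), Col7a1 (0.15), Col11a1 (0.27), Col11a2 (0.22), Col12a1 (0.24), Col16a1 (-0.059), Lama1 (0.12), Lama2 A_51_P191865 (0.24), Lama3 A_52_P141739 (0.16), Lama4 A_51_P212427 (0.15) and A_52_P7554 (0.023), Lamb2 (0.075), Lamc1 (-0.17), Lamc3 (0.31), Mmp2 (0.19), Mmp14 A_52_P304128 (0.0027), Mmp17 A_51_P508775 (0.19), Mmp24 (0.27) and Mmp25 (0.31). With array weights they were Col4a6 (0.0088), Col11a1 (0.11), Col12a1 (0.095), Col27a1 A_52_P480088 (-0.21), Col6a2 A_51_P279639 (-0.15), Col8a1 (0.33), Lamc1 (-0.080), Lamc3 (0.060) and Mmp23 (-0.028). With the value table they were Col4a6 (0.056), Col11a2 (0.030), Col12a1 (0.11), Col27a1 A_52_P480088 (-0.13), Col6a2 A_52_P362757 (0.040), Col8a1 (0.25), Col4a3bp A_51_P134574 (0.041), Lama2 A_51_P191865 (0.12), Lamb2 (0.015) and Lamc1 (-0.037). The mean per gene gave Col2a1 0.036, Col6a2 -0.11, Col4a3bp -0.043 and Lama3 -0.17. Quantile normalization gave 0.011 for Col12a1, -0.011 for Col14a1 and 0.014 for Lama2 A_51_P191865, and slide as a random block gave 0.0055 for Col7a1 and -0.011 for Lama2 A_52_P652859.

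With 1 pool left out, the differences ranged from -0.14 to 0.51 for Col1a1 A_52_P525107, -0.13 to 0.52 for A_51_P377094, -0.030 to 0.46 for Col3a1, -0.12 to 0.15 for Col5a2, -0.25 to 0.082 for Col5a3, -0.38 to 0.0028 for Col11a1, -0.32 to 0.11 for Col11a2 and -0.18 to 0.17 for Col27a1 A_52_P480088. They ranged from -0.018 to 0.077 for Col4a4, -0.11 to 0.028 for Col4a6, -0.35 to 0.089 for Col6a1, -0.057 to 0.12 for Col6a2 A_51_P279639, -0.27 to 0.10 for Col7a1, -0.27 to 0.23 for Col8a1, -0.065 to 0.12 for Col9a2, -0.11 to 0.078 for Col12a1, -0.046 to 0.14 for Col14a1 and -0.052 to 0.15 for Col16a1. They were -0.053 to 0.49 for Col13a1 A_52_P147487, -0.20 to 0.23 for Col25a1, -0.28 to 0.022 for Col4a3bp A_51_P134574 and -0.0021 to 0.18 for A_51_P238533. For laminins the ranges were -0.061 to 0.029 and -0.12 to 0.14 for Lama2, -0.013 to 0.39 for Lama3 A_51_P167489, -0.055 to 0.14 for Lamc1 and -0.24 to 0.020 for Lamc3. They were -0.24 to 0.11 for Mmp14 A_52_P304128, -0.079 to 0.15 for Mmp23 and -0.052 to 0.18 for Timp1. The Col4a1, Col4a2, Timp2, Mmp7, Col8a2 and Col13a1 A_51_P240374 differences kept their sign under every alternative run.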

Other observations

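In LKO pool 3 the value table gave 50 of the 73 tested members a higher value than the scanner file and 23 a lower one. Over the 73, its log2 value, each source relative to its own 75th percentile, was higher than the scanner value by a median of 0.32, against 0.038 over all tested probes with complete values. For fibrillar collagens the median was 0.56, and 5 of 15 probes moved by more than 1 (4 up and 1 down), against 6.25% of all tested probes. Col3a1 moved in that pool to 2.19 in the value table, against 0.60 in the scanner file. In the other 5 pools the sources lay within 1% of each other for 99.8% of probes. The fibrillar family median was 0.28 with the value table, 0.017 with the scanner files and 0.066 without LKO pool 3. Transmembrane and multiplexin collagens had a median shift of -0.011.

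Dim probes that were not tested for Col25a1 and Col9a3 had 1 or 2 pools far from the rest. Col25a1 probe A_52_P78291 read -5.01, -3.65 and -6.43 in the LKO pools against -6.63, -6.76 and -6.68 in the control pools, and was above background on 2 LKO arrays and 0 control arrays. Col9a3 read -3.21 in LKO pool 2 and -3.81 in control pool 2, and -6.22 to -5.03 in the other 4. Kupffer cell and macrophage markers had 2 probes higher and 22 lower of 24 in LKO (median -0.22, 0 called). Their median was -0.085 without LKO pool 3 and 0.16 with the value table. Of that list Cd163 differed by 0.33 (limma adjusted p = 0.184) and Lyz1 by -0.49 (adjusted p = 0.189). Adipose markers had 3 higher and 9 lower of 12 (median -0.53, 0 called). The adipose median was -0.18 without LKO pool 3 and -0.35 with the value table. With all pools Lpl differed by -1.01 (adjusted p = 0.0792) and -0.49, and Cfd by -3.44 (adjusted p = 0.114). Neutrophil markers had 5 tested probes, with Lcn2 at 0.74 and Mpo at -0.38, and lymphocyte markers 16, with Ms4a1 at -0.88 and Cd8b1 at -0.56 and -0.032. Pancreas markers had 9, with Prss3 at -0.69 and -0.034 and Cel at -0.42, and mesothelial markers 10, with Gpm6a at 0.90 and 0.40 and Wt1 at 0.81. None of these passed the threshold. S100a8, Plin1 and Pnlip were above background on no array.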
